A study of Mus musculus with 4 samples.

Results

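The subject here is a set of HNF4A binding sites of moderate to high strength that were listed in healthy mouse colon epithelium and not in colitis. They were chosen by their peak scores and by the DSS list: they are the peaks of the water list whose score lay above that list's median, 9.398, and that shared not a single base with a peak of the DSS list, with mitochondrial peaks left out. There were 2204 such stronger water-only peaks among the 17886 peaks of the water list. They made up 24.7% of the 8938 water peaks above the median, whereas 47.1% of all 17880 water peaks outside the mitochondrial chromosome had no DSS partner. Both shares are set by the rule and are given as description.

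Scraped colonic epithelium of adult mice, 2 to 4 months old, was examined by ChIP-seq, in which DNA pulled down with an antibody's target is sequenced. Mice of 1 group drank water and those of the other were given 3% dextran sulfate sodium (DSS) for 6 days; DSS is a chemical that damages the colonic lining and causes colitis. HNF4A and H3K27ac were each mapped with 1 library per group, so 4 libraries in all. The labels used here give no strain, sex or genotype, and do not say whether animals were pooled. In bulk libraries such as these, fewer cells of a type and less signal per cell cannot be told apart, and no expression values were at hand to check the cell type against its markers.

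HNF4A, a nuclear receptor, binds DNA as a homodimer and drives genes of differentiated enterocytes and colonocytes, among them genes of transport, metabolism and the epithelial barrier. H3K27ac, the acetylation of lysine 27 on histone H3, marks active enhancers and promoters. A peak is a place where tags pile up; a site can be bound in both conditions and still enter a single list, since listing depends on a threshold. No base sequence of the mm9 build was used, so the peaks are described by position.

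The stronger water-only peaks were concentrated at the low end of the scores above the threshold. Their scores ran from 9.404 to 59.6, with a median of 11.3 (quartiles 10.2 and 13.1). The water peaks above the threshold that did overlap a DSS peak, called stronger shared peaks here, numbered 6734 and had a median score of 15.4 (quartiles 11.9 and 21.1). In the lowest decile of the stronger peaks, 452 of 894 had no DSS partner, which is 50.6% (Wilson 95% interval 47.3 to 53.8). In the highest decile it was 6 of 894, or 0.671% (0.308 to 1.46). The share was lower in each higher decile of score, as the bars by decile show. All intervals here and below cover counting error alone, since no group has a replicate.

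**Figure D1:**
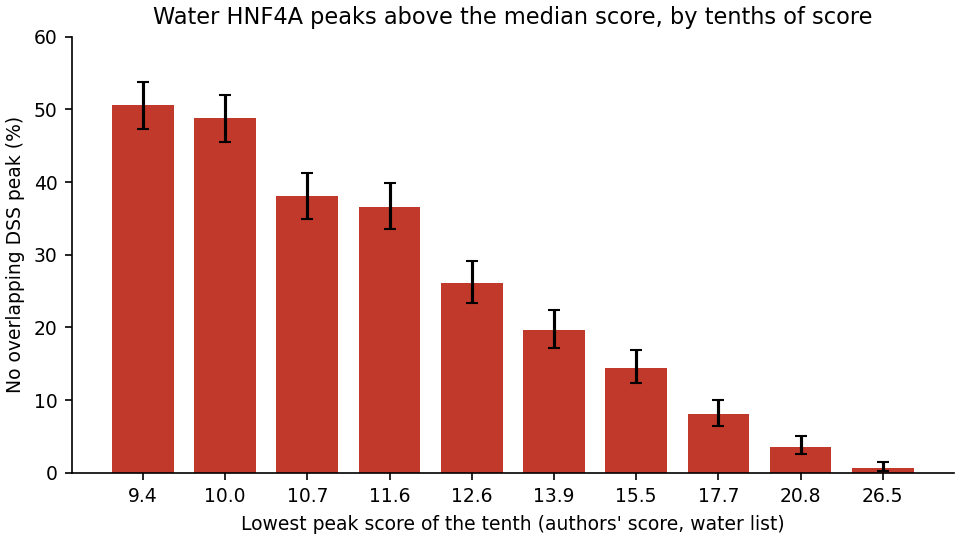
Share of water HNF4A peaks above the median score that had no overlapping DSS peak, in deciles of score; the x axis gives the lowest score of each decile and the bars carry Wilson 95% intervals. The share goes from 50.6% in the lowest decile to 0.671% in the highest.

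The threshold did not fall at a gap in the scores. The 10 stronger water-only peaks just above it scored 9.404 to 9.415 and ranked 8929 to 8941 in the water list. The 10 water-only peaks just below it scored 9.390 to 9.398 and ranked 8942 to 8958. All members therefore ranked within the first 8941 of the 17886 peaks of the water list. The DSS list was shorter, with 10688 peaks, and ranks cannot be compared between lists of unknown HNF4A depth. Above a score of 15 there were 288 water-only peaks among 3839, and above 20 there were 50 among 1984 (2.52%, interval 1.92 to 3.31).

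Water-only peaks of this strength occurred on each autosome and on the X chromosome. Their share of the stronger water peaks of a chromosome ran from 21.0% on chromosome 19 (66 of 314, interval 16.9 to 25.9) to 32.4% on the X chromosome (34 of 105, 24.2 to 41.8). Chromosome 11 held the most, 178 of 714 stronger peaks. The intervals of chromosome 19 and the X chromosome overlapped slightly.

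Several of the strongest water-only peaks stood right beside a DSS peak. The highest lay on chromosome 2 (98506150 to 98506749, mm9), with a score of 59.6 and rank 42 in the water list. Another, ranked 216 with a score of 41.0, overlapped it (98506325 to 98506924). Their nearest DSS peak, ranked 67 of 10688 with a score of 61.7, was 186 and 11 bases away from them and was itself overlapped by another water peak. The peak of rank 118, on chromosome 10 (21861847 to 21862446, score 47.6), was 33 bases from the DSS peak of rank 98. In these 3 cases the rule separated peaks whose 600-base intervals nearly touched, and a bound site was listed in DSS close by.

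Others of the 10 strongest were far from DSS binding. A peak on chromosome 17 (6300320 to 6300919, score 28.1, rank 749) was 121 kb from the nearest DSS peak and had no other water peak within 50 kb. A peak on chromosome 18 (42670630 to 42671229, score 28.1, rank 748) stood alone likewise, 118 kb from DSS binding. The peak on chromosome 15 at 5228493 to 5229092 (score 25.2, rank 1033) was 92.5 kb away. A peak on chromosome 19 (5040749 to 5041348, score 33.3, rank 419) was 35.4 kb from a DSS peak and overlapped another water peak by 300 bases. Those on chromosome 17 at 35841780 to 35842379 (score 25.9, rank 945) and on chromosome 14 at 66701413 to 66702012 (score 25.3, rank 1032) were 16.0 and 5.93 kb away. On chromosome 15 at 85904861 to 85905460 (score 26.2, rank 929) the distance was 1.18 kb. The 10 strongest thus covered 11 bases to 121 kb from DSS binding, and none of them overlapped an H3K27ac region of either list. Whether any of them, or any of the groups of members described below, falls in a blacklisted part of the genome was not tested.

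Over all members, the nearest DSS peak was a median of 21.4 kb away (quartiles 6.56 and 61.7). It was within 300 bases of 54 members, 2 of which touched it, within 1 kb of 149 (6.76%) and within 10 kb of 733 (33.3%). It was more than 100 kb away from 345 (15.7%). Near misses were thus a small part of the list. Of the 54 members with a DSS peak within 300 bases, 47 had a nearest DSS peak that was overlapped by another water peak and 7 did not. Farther out this held for 86 of 95 members up to 1 kb and 484 of 584 at 1 to 10 kb. It held for 954 of 1126 at 10 to 100 kb and 280 of 345 beyond that, so it was not particular to near misses. Above a score of 20, the nearest DSS peak was within 1 kb of 7 of 50 members, compared with 89 of 1398 members that scored up to 12.

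**Figure D2:**
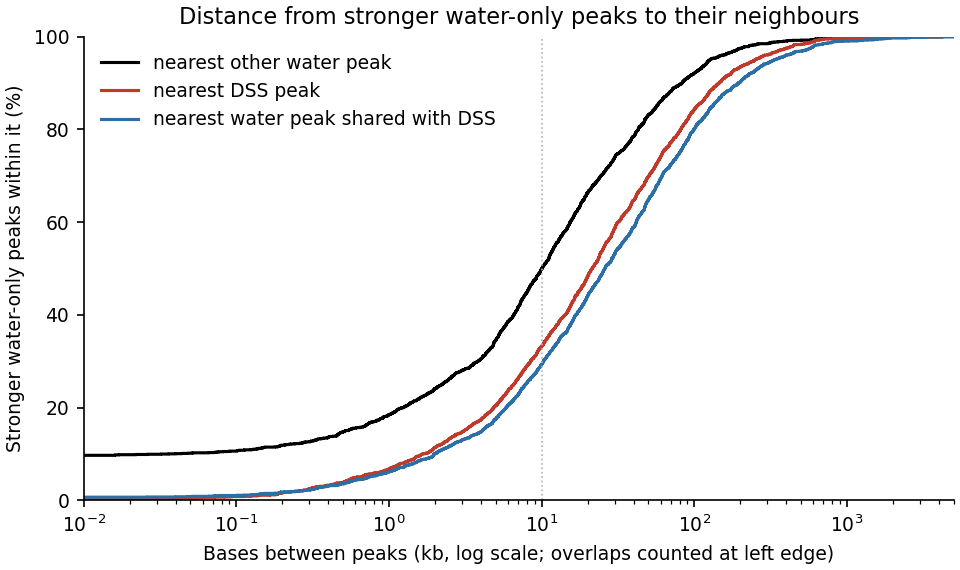
Cumulative share of the 2204 stronger water-only peaks against the number of bases to the nearest other water peak, DSS peak and shared water peak, on a log axis; the dotted line marks 10 kb. At 10 kb the curves stand at 49.95%, 33.3% and 29.4%.

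Many members had other water binding nearby. The nearest other water peak was a median of 10.04 kb away, and 371 members (16.8%, interval 15.3 to 18.5) had none within 50 kb. For stronger shared peaks that share was 14.9% (14.1 to 15.8), and for the 6213 weaker water-only peaks, with scores at or below the threshold, it was 21.7% (20.7 to 22.8). A water peak that was shared with DSS lay within 10 kb of 647 members, or 29.4% (27.5 to 31.3). The same held for 40.7% of stronger shared peaks (39.5 to 41.9) and 23.7% of weaker water-only peaks (22.7 to 24.8). Members therefore sat between those classes on this measure, which uses the DSS list as the rule does and is given as description. Some members are not separate sites: 213 overlapped another water peak, and merging members that overlap each other left 2174 sites.

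When members were linked at gaps of up to 50 kb, 1544 stood alone, 470 fell into pairs and 135 into groups of 3. The most crowded group held 11 members over 116 kb of chromosome 8 (19875074 to 19991536). Their scores ran from 10.1 to 15.9, and members, shared peaks and DSS peaks alternated along it: it held 4 shared water peaks, 4 weaker water-only peaks and 8 DSS peaks, but no listed H3K27ac region. Of its 11 members, 9 lay in crowded 100 kb windows, which hold 10 or more water HNF4A peaks. Such windows held 56 of all 2204 members (2.54%) and 177 of the 6734 stronger shared peaks (2.63%).

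Groups of 5 members each occurred 4 times, 3 of them on chromosome 5. The group at 14995221 to 15007422 packed 5 members, 4 separate sites after merging, into 12.2 kb, with scores from 9.71 to 14.5 and no other peak of either list among them. The group at 99758041 to 99846426 spread over 88.4 kb with 6 weaker water-only peaks, 2 shared peaks and 2 water-enriched H3K27ac regions. The group at 135411319 to 135477536 held 3 shared peaks, 4 DSS peaks and 1 DSS-enriched H3K27ac region. The last lay on chromosome 17 (25928688 to 26057907) with 2 shared and 2 weaker water-only peaks and no listed H3K27ac region. The maps of these groups show that, apart from the 12.2 kb group, stretches rich in water-only peaks also held binding listed in DSS.

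**Figure D3:**
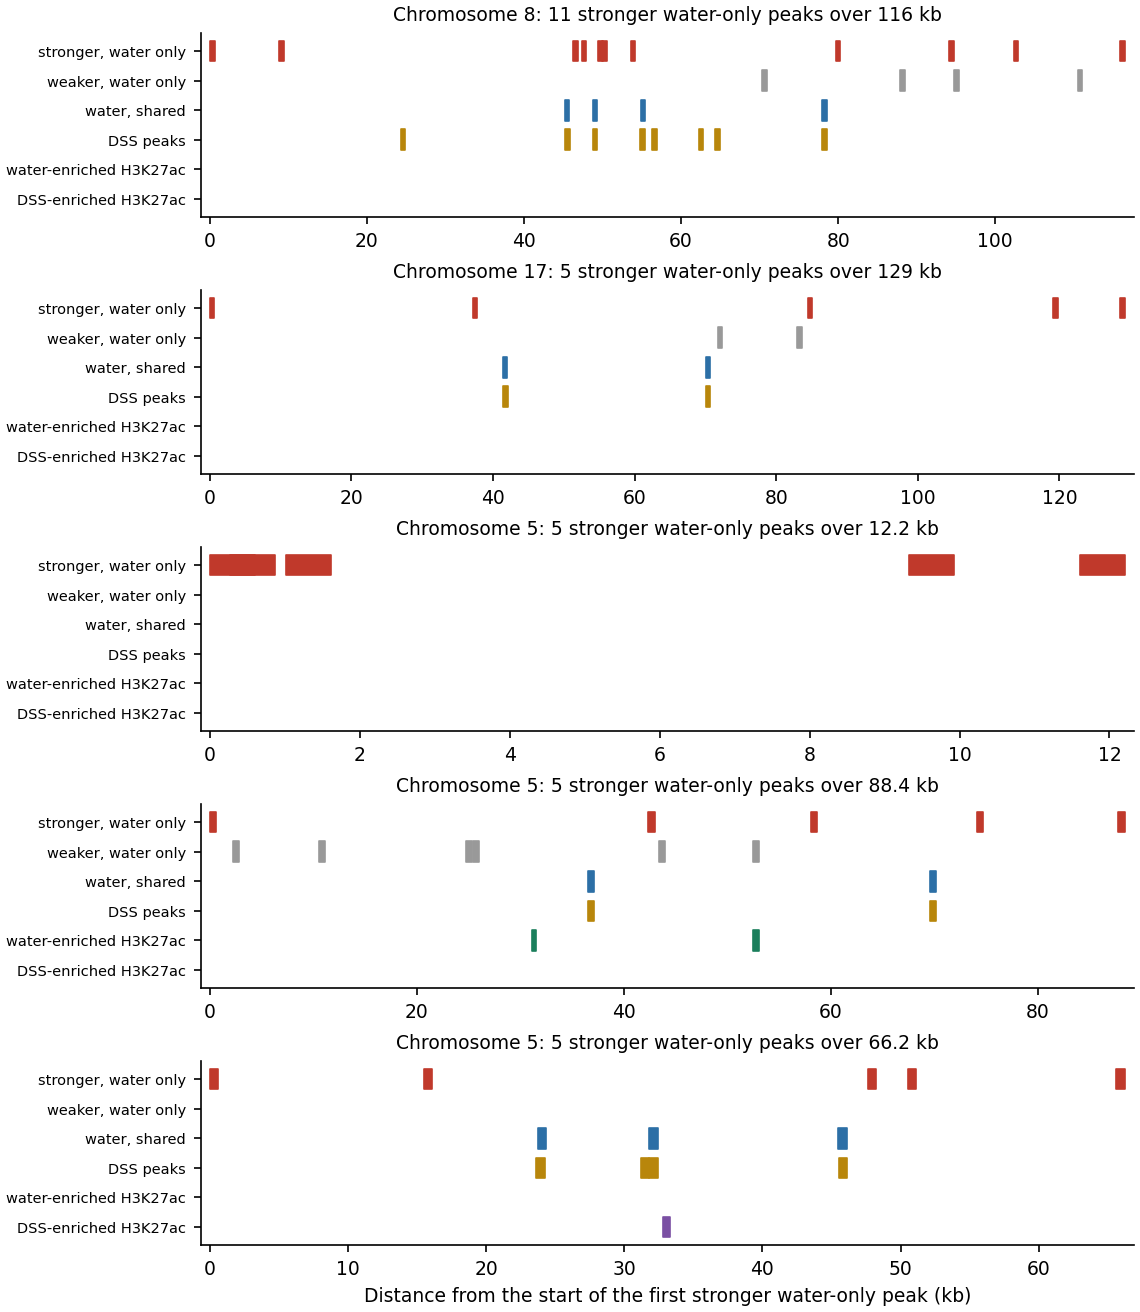
Maps of the 5 groups with 5 or more stronger water-only peaks, to scale, as distance in kb from the start of the first one; rows show HNF4A peaks of each class, DSS peaks and listed H3K27ac regions. The 12.2 kb group on chromosome 5 holds 5 stronger water-only peaks and nothing else, whereas the group on chromosome 8 holds 8 DSS peaks among its 11.

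H3K27ac was not used to choose the peaks, so it gives an independent view of these sites. The authors listed 1000 regions with the most H3K27ac in water relative to DSS and 1000 with the most in DSS relative to water, away from reference points that the files do not name. The list names read as 2 kb away, so peaks close to a reference point could not lie on either list. How many peaks of each class lay that close was not tested. Of the 2204 members, 50 overlapped a water-enriched region (2.27%, interval 1.73 to 2.98) and 23 a DSS-enriched region (1.04%, 0.696 to 1.56), and 0 overlapped both. The other 2131 members (96.7%) lay on neither list; the tag counts there are not analysed here.

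Members lay on water-enriched regions less often than the stronger shared peaks did. Of the stronger shared peaks 222 of 6734 were on such a region (3.30%, interval 2.90 to 3.75), so the share of members was 1.03 points below it (Newcombe interval of the difference, -1.74 to -0.213). Over all stronger water peaks the share was 3.04%. Score moved with this: weighting the shared peaks to the scores of the members in 10 bins gave 3.02% for them and a difference of -0.751 points (-1.60 to 0.0946), which no longer leaves out 0. Compared with weaker water-only peaks, of which 1.61% (1.33 to 1.95) were on a water-enriched region, members were higher by 0.659 points (0.0157 to 1.42).

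On DSS-enriched regions the classes were close. Stronger shared peaks reached 1.35% (1.10 to 1.66), and members differed from them by -0.308 points (-0.770 to 0.267). Over all stronger water peaks this share was 1.28%. Weaker water-only peaks reached 1.03% (0.808 to 1.31), with a difference of 0.0135 points (-0.434 to 0.577). These intervals hold 0 and do not show that the classes are alike. Beside regions, members differed from stronger shared peaks by -0.881 points (-1.57 to -0.0842) at 2 to 10 kb from DSS-enriched regions. Up to 2 kb from water-enriched regions the difference was -0.639 points (-1.06 to -0.113). Up to 2 kb from DSS-enriched regions it was -0.110 (-0.616 to 0.513), and at 2 to 10 kb from water-enriched regions -0.145 (-0.870 to 0.694).

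The share of members on water-enriched regions was also followed along the score. The 50 members on such regions scored 9.42 to 15.7, with a best rank of 3500. Of the 50 members with scores above 20, 0 overlapped a water-enriched region and 1 overlapped a DSS-enriched region. With 3 counts as the most that a count of 0 allows, the share on water-enriched regions could reach 6%. This bound is not a Wilson limit. In the quintile of stronger peaks below the highest (scores 15.5 to 20.8), 2 of 201 members (0.995%, 0.273 to 3.55) and 64 of 1586 shared peaks (4.04%, 3.17 to 5.12) were on a water-enriched region. In the lowest quintile (scores up to 10.7) the shares were 1.802% of 888 members (1.11 to 2.91) and 3.33% of 900 shared peaks (2.34 to 4.72). In quintile 2 they were 2.85% (1.83 to 4.41) and 2.77% (1.957 to 3.902), and in quintile 3 they were 3.17% (1.86 to 5.35) and 2.61% (1.89 to 3.595). Quintile 5, the highest, had 0 of 38 members on such a region, with an interval of 0 to 9.18%, and 61 of 1750 shared peaks (3.49%, 2.72 to 4.45). Intervals of the classes overlapped in each quintile. Overlap of separate intervals does not show that the classes are alike, and no interval of the difference was computed per quintile.

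**Figure D4:**
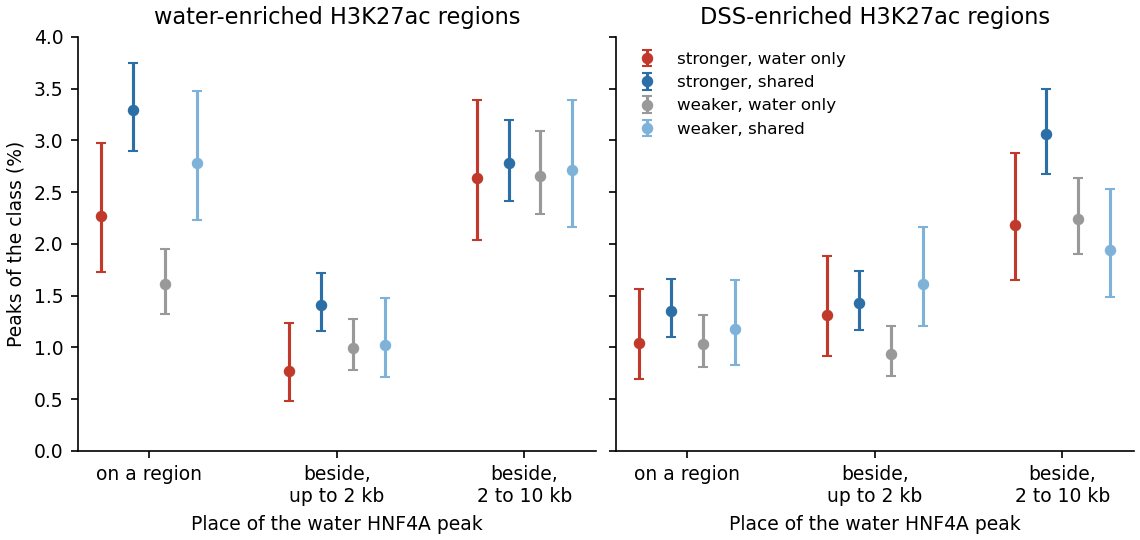
Share of each class of water HNF4A peak that lay on, up to 2 kb beside, or 2 to 10 kb beside a listed H3K27ac region, with Wilson 95% intervals; left, water-enriched regions, and right, DSS-enriched regions. Stronger water-only peaks on water-enriched regions stand at 2.27%, between stronger shared (3.30%) and weaker water-only peaks (1.61%).

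For members, the balance between the lists turned with the place of the peak. Of the 73 members on a region of either list, 68.5% (interval 57.1 to 78.0) were on a water-enriched one. Of the 46 cases of a region lying beside a member at up to 2 kb, 17 were water-enriched, which is 37.0% (24.5 to 51.4). The difference between on and beside was 31.5 points (13.2 to 47.2). Stronger shared peaks had a difference of 21.2 points (12.4 to 29.7), with 70.9% on and 49.7% beside. Weaker shared peaks had 70.4% on (61.2 to 78.2) and 38.9% beside (28.5 to 50.4), so the turn was not particular to members. In weaker water-only peaks the shares were closer, with 61.0% on (53.3 to 68.1) and 51.7% beside (42.8 to 60.4). Beside a region, the water-enriched share of members differed from that of stronger shared peaks by -12.8 points (-27.1 to 3.28), an interval that holds 0. At 2 to 10 kb, 58 members had a water-enriched and 48 a DSS-enriched region.

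The water-enriched regions that held a member had fewer H3K27ac tags in DSS by about as much as their list as a whole. There were 58 of them, 50 after merging those that overlap, with a median nucleosome count of 259.5 tags in water (quartiles 153 and 404.5) and 140 in DSS (74 and 224). The median log2 ratio of DSS to water, scaled by library totals, was -0.92 (quartiles -1.06 and -0.74); over all 1000 regions it was -0.91. Nucleosome tags were more than 2-fold lower in DSS in 19 of the 58 (32.8%), compared with 40.1% over the list. The authors chose the list by a score of nucleosome tags less linker tags, which largely sets this direction, so the direction is no finding.

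The median of these regions was set beside those of other classes. Regions holding a stronger shared peak had a median log2 ratio of -0.78, and 22.4% of 245 passed 2-fold. Those holding a weaker water-only peak stood at -0.99 with 48.5% of 103 past 2-fold, and those without any water peak at -0.97 with 48.2% of 541. Leaving out regions that hold both classes, the share past 2-fold in members differed by 10.2 points from that with stronger shared peaks (-1.86 to 23.9) and by -15.2 points from that with weaker water-only peaks (-29.7 to 0.928). Both intervals hold 0, so members were not separated from either class. Against regions without a water peak the difference was -15.5 points (-27.0 to -2.00). The intervals count all 58 regions, some of which overlap, and no share past 2-fold was computed on the 50 merged ones. Tag level moved with these classes: water medians were 364 tags for stronger shared peaks, 239 for weaker water-only peaks and 228 without a peak, and its part in the difference was not tested. Regions with members lay a median of 16.1 kb from the authors' reference points, against 19.0 kb with a stronger shared and 35 kb with a weaker water-only peak.

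**Figure D5:**
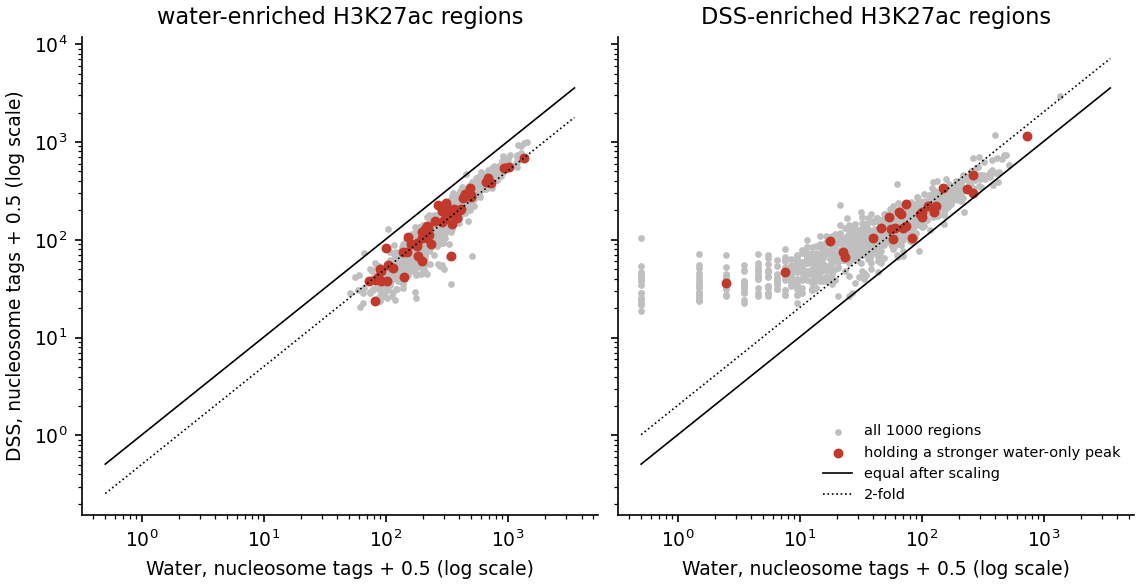
Nucleosome H3K27ac tags in water and in DSS for the listed regions, each count plus 0.5, on log axes; red points are the 58 water-enriched (left) and 28 DSS-enriched regions (right) that held a stronger water-only HNF4A peak. The solid line marks equal scaled tags and the dotted line 2-fold. Red points spread along the grey points of their list.

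Among water-enriched regions with a member, the one of the most uneven tags lay on chromosome 11 (109049016 to 109049641). It held 341 nucleosome tags in water and 67 in DSS, 5.18-fold higher in water (exact interval 3.98 to 6.84). Its member (109048917 to 109049516, score 11.6, rank 6206) was 142 kb from the nearest DSS peak and overlapped a second water peak. That H3K27ac was lower in DSS there and HNF4A was listed in water alone is largely set by the choice of list and rule.

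At 11775081 to 11775696 on chromosome 2, a region had 182 water tags and 67 DSS tags, 2.77-fold higher in water (2.08 to 3.72). Its member (11775012 to 11775611, score 10.4, rank 7542) was 140 kb from DSS binding. On chromosome 3 (103297526 to 103298046) the counts were much higher, 1023 tags in water and 558 in DSS, a 1.87-fold difference (1.68 to 2.07). The member there (103297898 to 103298497, score 13.7, rank 4615) was 322 kb from the nearest DSS peak. In all, 6 of the 50 members on water-enriched regions (12%) had no DSS peak within 100 kb, compared with 15.7% of all members. A DSS peak lay within 10 kb of 25 of them (50%), compared with 33.3% of all members.

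Other members on strongly acetylated regions sat near DSS binding. On chromosome 3 (96379106 to 96379671) a region with 1341 water tags and 692 DSS tags was 1.97-fold higher in water (1.799 to 2.17). Its member (96378615 to 96379214, score 15.05, rank 3827) was 190 bases from the DSS peak of rank 269, which lay on the same region. On chromosome 17 (33055996 to 33056591) the tags were 951 and 538, 1.8-fold higher in water (1.62 to 2.004). The member there (33055969 to 33056568, score 10.3, rank 7655) was 1.12 kb from DSS binding, in a crowded window. Members on water-enriched regions thus occurred both with and without a DSS peak close by. The lower H3K27ac in DSS at these regions is largely set by the authors' list.

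Differences of similar size were found in 3 further regions that the naming rule picked. On chromosome 1 (174343501 to 174344081) there were 495 water tags and 271 DSS tags, 1.86-fold higher in water (1.60 to 2.16), with a member of rank 4797. Chromosome 11 (98644516 to 98645146) held 414 and 208, 2.03-fold (1.71 to 2.41), with a member of rank 4154. Chromosome 15 (77685731 to 77686326) held 360 and 206, 1.78-fold (1.495 to 2.12), with a member of rank 8074. Each of these lay 12.4 to 32.9 kb from the nearest DSS peak. Steeper differences at lower counts, chosen after their values were seen, were on chromosome 7 (137998421 to 137998881, 81 tags in water and 23 in DSS) and chromosome 10 (21271931 to 21272501, 139 and 41).

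Water-only HNF4A peaks also lay on DSS-enriched regions. The authors chose these for more H3K27ac in DSS, so the direction is no finding. The 28 DSS-enriched regions with a member had a median of 71.5 nucleosome tags in the water library, 172 in the DSS library, and a median log2 ratio of 1.04 (quartiles 0.77 and 1.51). Over the whole list the median was 1.41, with 38 tags in water and 106 in DSS. Tags were more than 2-fold higher in DSS in 14 of the 28 (50%, interval 32.6 to 67.4), compared with 71.5% over the list. Regions with a stronger shared peak had a median of 0.92 and 45.1% past 2-fold, a difference from members of 4.95 points (-15.2 to 24.9). Regions without a water peak had 1.51 and 76.4%, which members fell below at -26.4 points (-44.0 to -8.75). The 28 regions come to 24 after merging those that overlap, which these intervals leave out of account. Here too tag level moved with the class, as regions without a water peak held a median of 32 tags in water, and its part was not tested.

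At the DSS-enriched region with the highest deposited score among these, on chromosome 2 (173146671 to 173147256), 73 tags in water stood against 231 in DSS, a ratio of 3.11 (2.38 to 4.10). The adjoining region (173147256 to 173147716) held 17 and 97, a ratio of 5.60 (3.33 to 10.01). Both shared the member at 173146699 to 173147298 (score 13.5, rank 4752), which was 151 kb from the nearest DSS peak and had no other water peak within 50 kb. Higher acetylation in DSS and HNF4A listed in water alone were largely set by the choice of list and rule, so their pairing is no finding.

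Other members on DSS-enriched regions had the same pairing, likewise largely set by the list and the rule. On chromosome 13 (51053206 to 51053676) tags were 53 in water and 172 in DSS, a ratio of 3.19 (2.33 to 4.42). Its member (51053568 to 51054167, score 9.58, rank 8687) was 135 kb from DSS binding. On chromosome 4 (141428091 to 141428631) they were 64 and 192, a ratio of 2.95 (2.21 to 3.97), with a member 5.16 kb from DSS binding. On chromosome 14 (21043671 to 21044126) they were 148 and 340, a ratio of 2.26 (1.85 to 2.76). The member there (21043644 to 21044243, score 17.2, rank 2870) was 5.0 kb from the DSS peak of rank 661. On chromosome 9 (40592051 to 40592596) they were 60 and 132, a ratio of 2.16 (1.58 to 2.98).

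In the remaining 3 regions that the naming rule picked, the ratio was below 2. On chromosome 7 (134621711 to 134622241) there were 728 water tags and 1160 DSS tags, a ratio of 1.56 (1.43 to 1.72), with a member of rank 3813. Chromosome 8 (83334771 to 83335226) held 131 and 222, a ratio of 1.66 (1.34 to 2.08). Chromosome 6 (141219646 to 141220176) held 100 and 190, a ratio of 1.87 (1.46 to 2.40). Its member (141220039 to 141220638, score 24.2, rank 1187) was the strongest on any listed region. The lowest water count, chosen after the values were seen, was on chromosome 14 (76263401 to 76263991) with 2 tags in water and 36 in DSS, a ratio of 17.7 (4.55 to 152).

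The stretches with the most listed H3K27ac regions held too few water peaks to compare the share of members. The group of 6 merged regions on chromosome 4 (55616481 to 55731861), near Klf4, a transcription factor of colonic epithelial differentiation, contained 10 water peaks. Of these, 8 were shared and 1 was a member (55714121 to 55714720, score 10.03, rank 8070), which lay 9.51 kb from the nearest of those regions. The group of 6 in the HoxA cluster on chromosome 6 (52198701 to 52248971) and the DSS-enriched group of 7 near Hk2, the gene of a glycolytic hexokinase (82697666 to 82727341), contained 4 and 2 water peaks, of which 0 were members. These 3 places were named from general knowledge of the mouse genome, as no mm9 gene annotation was used.

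The members rest on 1 library per condition. These lists do not show how deeply HNF4A was sequenced, so a peak missing from the DSS list is not shown to be unbound in colitis.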

How the data were processed

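HNF4A and H3K27ac ChIP-seq of colonic epithelium were used, with 1 library each for water and DSS. Per the submitters' processing notes, CASAVA 1.8.2 and MACS2 were used with mm9; the aligner is not given in the sources used here. The authors deposited, for HNF4A, 600-base peaks with a score whose kind is not stated; scores were used to choose and rank peaks within a list. The authors deposited, for H3K27ac, raw tag counts per region, nucleosome and linker separately, per the file headers, and a deposited score. The score was rebuilt as the square root of nucleosome tags less that of linker tags, scaled per library, in DSS minus water. Library totals recovered from that score (10329416 tags in DSS, 10143920 in water) scaled the counts. The H3K27ac depth behind each ratio is its tag count; the HNF4A depth is unknown.

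Columns headed WT were read as water, "nuc" and "lin" as nucleosome and linker, and the column headed "id" as the distance in bases to an unnamed reference point. The DSS tag columns also carry the codes "r2" and "sorted", which the water columns lack and whose meaning is not stated. Peaks are written 1-based and regions as the file gives them; a shift of 1 base in region starts changed 0 overlaps. Overlap means at least 1 shared base, and distance the bases between intervals. Log2 ratios used a pseudocount of 0.5. Ratios carry exact conditional (Clopper-Pearson) 95% intervals, shares Wilson, differences Newcombe, and the score-weighted difference a stratified normal interval; medians were placed in an exact binomial interval for the alternatives. No p-value is possible with 1 library per group. Python 3.11, scipy 1.17.1 and statsmodels 0.14.6 were used, and the functions were tested on simulated data.

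The members and lists were chosen with earlier results of these data known. Peaks and regions were named by rule: the 10 strongest members, the 8 members per H3K27ac list whose region had the highest absolute deposited score, and the groups with most members or regions (ties included). Alternatives covered the overlap rule, score threshold, merging, sex chromosomes, crowded windows, distances, pseudocount and scaling. The gene and promoter tables at hand are of GRCm38, where the last gene of chromosome 1 ends at 195291439, before the last peak here (197068113). They were therefore not joined to the peaks, and the planned motif search and gene naming were not run.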

Additional observations from a re-analysis of the deposited data

How the results depend on the processing

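Each result was recomputed with 1 choice changed, giving 72 values. Of these, 49 stayed within the counting interval of the reported value (for the number of members, within 1.5 times) and 23 moved. That 0 changed sign says little. Counts and shares cannot be negative. The authors' list largely sets the direction of the log2 ratio, which ran from -3.29 to 0.261 over the water-enriched list. A change of sign was therefore open mainly to the difference in shares. Above the 75th percentile there were 415 members (9.29% of such peaks), 1.45% of them on water-enriched regions, 2.18 points below shared peaks (-2.18), with a median log2 ratio of -0.98 over 7 regions and 33.5% within 10 kb of a shared peak. Above the 90th percentile there were 38 members (2.13%), 0% on water-enriched and 2.63% on DSS-enriched regions, a difference of -3.49 points and 36.8% within 10 kb; no region was left for a log2 ratio. Requiring no DSS peak within 1 kb or 2 kb gave 23.0% and 21.9% of stronger peaks as members, 25.3% and 22.0% of them within 10 kb of a shared peak. Requiring 300 shared bases gave 25.8% and 31.8%. Counting regions within 2 kb put 3.04% of members at water-enriched and 2.36% at DSS-enriched regions. All tags of a region gave a log2 ratio of -0.83. At 5 kb and 50 kb, 17.5% and 64.8% of members had a shared peak nearby. The difference from stronger shared peaks left out 0 in the alternatives except the 90th percentile (-4.45 to 5.72) and the weighting to member scores (-1.60 to 0.0946). Counting overlapping H3K27ac regions once was added after the data were seen and left the log2 ratio at -0.92. No paired analysis was possible because each group had 1 library and the results come from no test. Counts limit single regions: 2 tags in water gave an interval of 4.55 to 152.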
